A study of Mus musculus with 35 samples.

Results

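Mouse embryonic stem cells (ESCs) were profiled by total RNA-seq 11 days after induced deletion of *Dnmt1*, and the 2 KO libraries of that day were compared with the 2 WT libraries of the same day. These 4 libraries were taken by their titles from 35 in the series, which covers 8 days and both genotypes and 1 library of *Dicer* KO cells. WT (control) and KO (DNMT1KO) are given as the same ESCs on an E14 background, while the study's methods describe *Dnmt1* loxP/loxP cells of strain C57BL/6 in which Cre is switched on with 4-hydroxytamoxifen. The cells were grown in serum and LIF, with or without feeder cells according to the methods, and the series calls the samples of a group biological replicates without saying which culture or clone each came from. The p-values below come from a fit to 12 libraries, these 4 and those of later days. They measure the spread between samples of a group, pooled over all 12 libraries, and not that of day 11 alone. This spread may be technical. Depth was between 30.3 and 38.5 mega-reads a library, and the share counted in exons was between 44.6% and 47.9%.

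DNMT1 copies the methylation pattern onto the newly made strand after DNA replication, with UHRF1 as its guide, so that methylation is diluted at each division when DNMT1 is lost. Dense promoter methylation holds many germline genes silent in ESCs, and methylation of 1 parental copy sets which allele of an imprinted gene is transcribed. DNMT3A, DNMT3B and the cofactor DNMT3L add methylation to unmethylated DNA, and the TET dioxygenases oxidise it.

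*Dnmt1* RNA was low in both KO libraries, but not equally low. It had 14.1 RPKM (reads per kilobase of exon, scaled to the library's mega-reads) in each WT library, 2.58 RPKM in KO replicate 1 and 3.97 RPKM in KO replicate 2. KO replicate 1 thus held 18.3% of the WT mean and KO replicate 2 28.2%, and the groups did not overlap. KO lay below WT by a log2 difference of -2.10 (limma adjusted p 1.139e-05, SE 0.158), with -2.40 for KO replicate 1 and -1.80 for KO replicate 2 taken alone. *Dnmt1* lies on the minus strand of chromosome 9, chr9:20711650-20757317 in NCBIM37. RNA counted over the whole gene cannot show how much of it came from cells that kept an intact allele and how much from a deleted one.

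The 2 KO libraries also differed over all genes. Across 11458 genes tested, they had a Pearson r of 0.968 with each other, against 0.992 for the WT pair, where genes share each library and are not replicates. In KO replicate 2, 480 genes were more than 1 log2 unit above KO replicate 1 and 69 more than 1 below, and the same counts for the WT pair were 48 and 16. This difference moved with transcript length. Genes were divided by length into 5 bins of like size. In the shortest bin, with 33 to 1727 exonic bases, KO replicate 2 lay below KO replicate 1 by a median of -0.28, and in the longest bin, with 5827 to 29858 bases, it lay above by 0.18. WT replicates 2 and 1 differed the same way by less, from -0.03 to 0.09. *Dnmt1*, with 5264 exonic bases, falls in bin 4, where the median difference was 0.01 and the quartiles were -0.20 and 0.30, and its own difference of 0.60 was above them. A fit with a trend in exon length removed was run as an alternative, and its counts are given below. What part of the differences came from transcript length was not tested. Values of both KO libraries are given for the genes described in most detail.

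**Figure D1:**
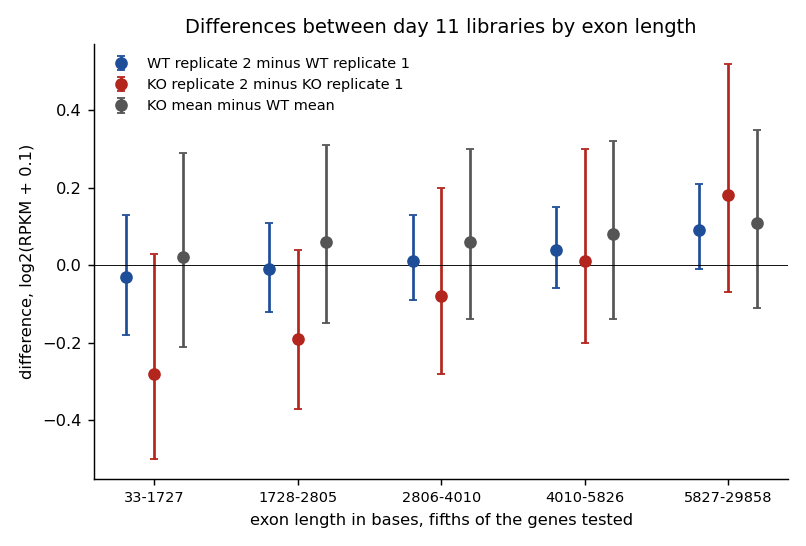
Differences between day 11 libraries by exon length. Points are medians over the genes of each of 5 bins of exon length (bases), and bars run from the first to the third quartile of genes, on the log2(RPKM + 0.1) scale. The difference of the KO libraries (red) climbs from -0.28 to 0.18, that of the WT libraries (blue) from -0.03 to 0.09, and the difference of the group means (grey) from 0.02 to 0.11.

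Between KO and WT, 1403 genes were called higher (12.2% of those tested) and 604 lower (5.27%), at a limma adjusted p below 0.05. Both KO libraries lay on the same side of both WT libraries for each of these genes. Such separation is common among all genes: 31.9% had both KO libraries above both WT libraries and 20.4% had both below. Rises were larger than falls. Of the genes called higher, 388 rose by more than 1 log2 unit and 118 by more than 2, against 64 and 5 of those called lower. The median difference of the genes called higher was 0.69 in KO replicate 1 and 0.73 in KO replicate 2, and that of the genes called lower -0.49 and -0.63.

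The balance of directions depended on scaling. The median of all genes was 0.066 as deposited and -0.043 after each library was centred on its median, and 69.9% of the called genes were higher as deposited against 47.2% after centring and 49.4% after a trend with exon length was removed. The 604 genes called lower were all called lower after centring as well, and of the 1403 called higher 941 were. Leaving out WT replicate 1 left 568 genes higher and 159 lower, leaving out WT replicate 2 left 806 and 230, and leaving out KO replicate 1 raised the counts to 2339 and 1495. With 1 library left in a group, that library is assumed to vary like the other groups.

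**Figure D2:**
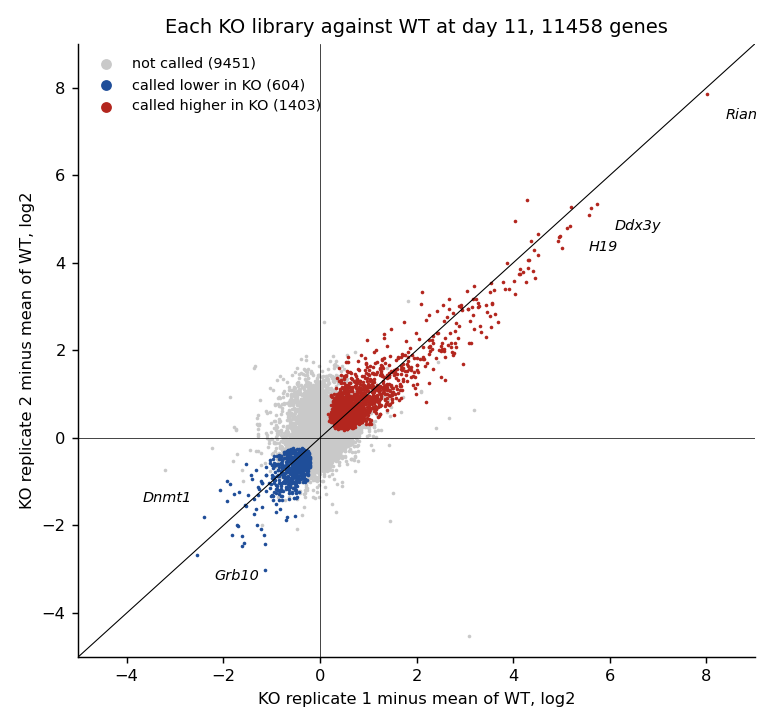
Difference of each KO library from the mean of the WT libraries at day 11, on the log2(RPKM + 0.1) scale, with 1 point per gene. The diagonal marks equal differences; called genes (red, 1403 higher; blue, 604 lower) lie along it in both libraries, while the genes not called (grey) spread around 0.

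By the naming rule, the largest rises were of *Rian*, *Ddx3y*, *H19*, *Smtnl1* and *Eif2s3y*, in this order. *Ddx3y* and *Eif2s3y* are Y-linked and are described below. *Rian*, a noncoding RNA transcribed from the maternal copy of the Dlk1-Dio3 imprinted domain on chromosome 12, had 0.015 and 0.0887 RPKM in WT and 38.13 and 34.05 RPKM in KO. Its log2 difference was 7.94 (SE 0.194, limma adjusted p 2.479e-09), the largest at this day by the rule used for naming. *H19*, the noncoding RNA of the maternal *Igf2* domain, had 9.24 and 9.02 RPKM in WT and 335 and 266 RPKM in KO, a log2 difference of 5.01 (SE 0.112, limma adjusted p 1.861e-09). *Smtnl1*, a smoothelin-like muscle gene, had 0.402 and 0.398 RPKM in WT and 15.4 and 11.9 RPKM in KO. *Rian* and *Smtnl1* passed the filter only through KO libraries. The groups were far apart in each case, and KO replicate 1 was the higher of the KO libraries.

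Of the other named rises, 5 were on the testis, X-linked or Rhox lists. *Rpl39l*, a ribosomal protein paralog of male germ cells, had 2.37 and 2.09 RPKM in WT and 49.0 and 32.6 RPKM in KO, and *Cox7b2*, a paralog of a respiratory chain subunit, had 1.53 RPKM in each WT library and 26.3 and 19.6 RPKM in KO. *Rhox6* had 1.1 and 1.52 RPKM in WT and 27.6 and 20.4 RPKM in KO, and *Rhox9* 0.642 and 0.492 RPKM against 9.35 and 6.86 RPKM. *Usp26*, a germ cell deubiquitinase gene, had 0.826 and 0.861 RPKM in WT and 8.79 and 8.35 RPKM in KO. Log2 differences of these 5 genes were 4.11, 3.80, 4.10, 3.61 and 3.2. *Pnma5*, *Efhc2*, *Gm14149*, *AI662270* and *Gm17672* rose by between 3.15 (*Gm17672*) and 4.34 (*AI662270*). Of the genes in this paragraph, *Rhox9*, *Usp26*, *Pnma5* and *AI662270* passed the filter only through KO libraries, so they had to be high in KO to be tested.

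Falls reached less far. *Grb10*, an imprinted adaptor that restrains insulin and growth factor signalling, had 23.6 and 23.1 RPKM in WT and 3.89 and 3.58 RPKM in KO, a log2 difference of -2.61 (SE 0.0907, limma adjusted p 6.82e-08). *Trh*, the thyrotropin-releasing hormone precursor, had 63.6 and 69.5 RPKM in WT and 18.8 and 14.2 RPKM in KO (log2 difference -2.02). *Otx2*, a transcription factor of the formative epiblast, had 3.97 and 3.46 RPKM in WT and 1.08 and 0.845 RPKM in KO (log2 difference -1.85). *Thy1* (-1.98), *Stat4* (-1.92), *Sycp3* (-1.85), *Efcab10* (-1.79), *Chac1* (-1.68), *G0s2* (-1.65), *Bdh2* (-1.65) and *Nxt2* (-1.56) completed the 12 largest. With only the day 11 libraries fitted, *Efcab10* and *G0s2* were not called. KO replicate 2 was the lower of the KO libraries for *Thy1* (0.752 and 0.381 RPKM), *Efcab10* (1.46 and 0.538 RPKM) and *G0s2* (0.718 and 0.353 RPKM), and *Efcab10* was no longer called when either WT library was left out.

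**Figure D3:**
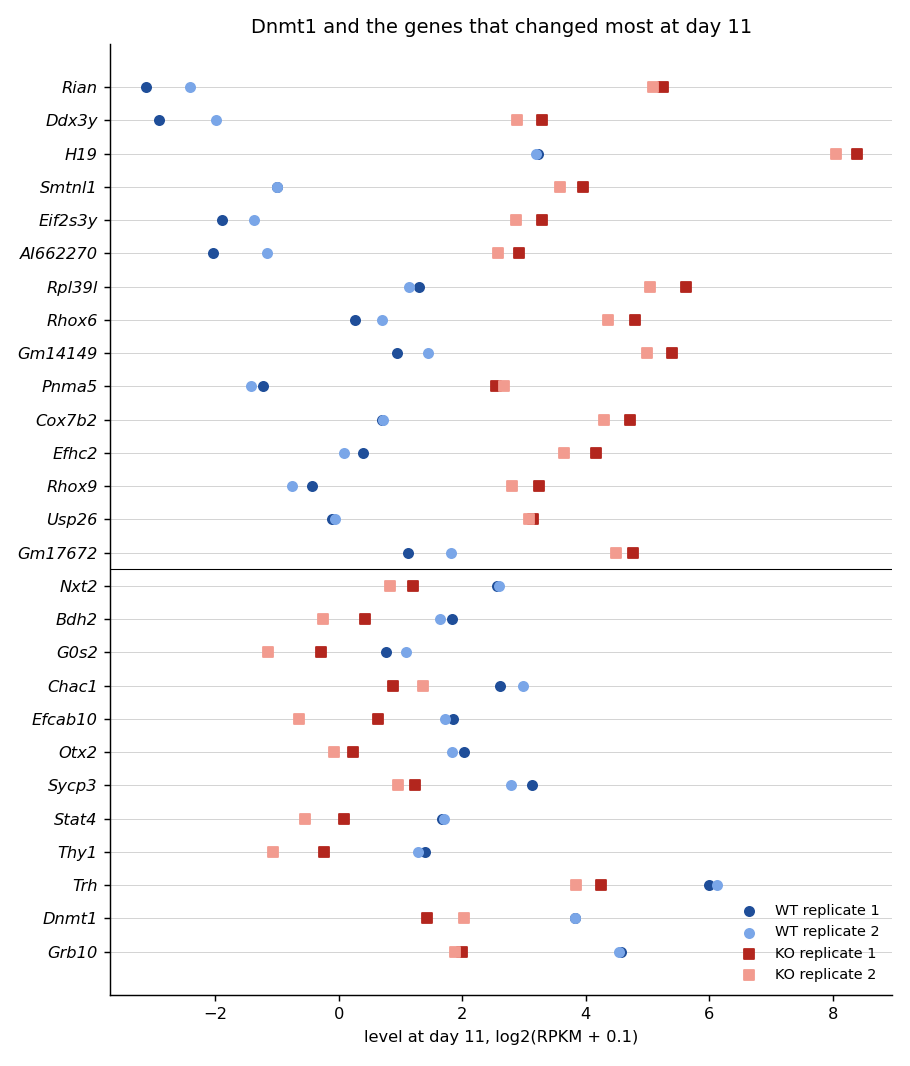
Levels of *Dnmt1* and of the genes with the largest called changes at day 11, as log2(RPKM + 0.1), with 1 point per library. WT libraries are blue circles and KO libraries red squares, dark for replicate 1 and pale for replicate 2. Rises stand above the line and falls below it. The naming rule took only genes whose WT and KO points do not overlap.

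WT and KO also differed in Y-linked transcripts, a difference that bears on how alike the compared cells were. The 9 listed Y-linked genes summed to between 0.294 and 0.548 RPKM in WT and to between 23.7 and 29.3 RPKM in KO. *Ddx3y*, a helicase, had 0.0331 and 0.151 RPKM in WT and 9.64 and 7.28 RPKM in KO, and *Eif2s3y*, a subunit of a translation initiation factor, 0.17 and 0.287 RPKM against 9.73 and 7.19 RPKM. *Zfy1* had no read in either WT library and 2.18 and 2.44 RPKM in KO, at least 69.8-fold higher against a floor of 3 reads per library, which covers counting error only. The 7 Y-linked genes tested were each called higher, beside 12.2% of all genes tested. The 6 of them that were listed passed the filter only through KO libraries, so they had to differ to be tested. *Ddx3y* and *Eif2s3y* had 0.655 and 1.71 RPKM in WT at day 0, and 0.306 and 0.77 RPKM in WT at day 9. WT at day 11 was below those levels and KO at day 11 above them, and at day 17 the means were 0.0327 RPKM in WT and 10.7 RPKM in KO for *Ddx3y*. *Grb10* (7.46 RPKM in WT at day 0, 7.1 at day 9) and *Rian* (0.987 and 0.699 RPKM) likewise had WT levels at day 11 outside those of the earlier days. The libraries of days 0 and 9 had a lower share of reads in exons, between 20.98% and 22.01%, so their levels are not on the same footing. At day 9, before the WT levels of *Rian* and *Grb10* moved away from those of day 0, *Rian* had a mean of 17.6 RPKM in KO (log2 difference 4.48) and *Grb10* 2.03 RPKM (-1.76), and *Ddx3y* had 3.45 RPKM (3.12). *Meg3* also had a lower WT mean at day 11 than at days 0 and 9, 0.00287 against 0.26 and 0.224 RPKM. The part of the changed WT levels in the size of the day 11 differences was not tested.

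Imprinted genes were described by the allele that is normally active. Of 27 listed genes expressed from the maternal copy, 19 passed the filter on low values, and 8 were called higher and 2 lower. Their median log2 difference was 0.28 against 0.066 over all genes tested, of which 12.2% were called higher and 5.27% lower. Of the 19, 6 passed only through KO libraries, so the count and the median are no separate support. The rises of 3 of them were in the Dlk1-Dio3 domain. *Meg3* had 0 and 0.00574 RPKM in WT and 1.58 and 3.07 RPKM in KO, and *Mirg* 0 and 0.0409 RPKM against 4.27 and 4.53 RPKM. *Rtl1*, a retrotransposon-derived gene of the paternal copy in the same domain, had 0 and 0.00409 RPKM in WT and 2.01 and 2.20 RPKM in KO. *Rtl1* is overlapped by a maternal antisense transcript, and the strand setting of the counting is not given in the sources used here, so its rise is uncertain. *Dlk1* itself did not pass the filter and stayed at 0.35 RPKM or below. *Grb10* and *Phlda2*, a growth-restraining gene of placenta, were the genes called lower, *Phlda2* by -0.61. *Igf2r* (0.88) and *Ascl2* (1.43) were called higher, and *Cdkn1c*, *Ube3a* and *Gnas* were not called. Without WT replicate 1, *Grb10* alone of the list was called lower.

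Of 26 listed genes expressed from the paternal copy, 24 had values and 17 passed the filter, 3 of them only through KO libraries. Of the 17, 11 were called higher and none lower, beside 12.2% and 5.27% of all genes tested, with a median of 0.89. *Peg10*, a retrotransposon-derived placental gene, had 24.8 and 31.3 RPKM in WT and 77.4 and 156 RPKM in KO (log2 difference 1.98), and KO replicate 2 was well above KO replicate 1. *Plagl1*, a zinc finger transcription factor, rose by 2.19, *Peg3* by 1.42, *Impact* by 1.21, *Mest* by 0.99 and *Snrpn* by 0.93. *Snrpn*, a spliceosome component gene, had 21.5 and 23.2 RPKM in WT and 43.6 and 41.7 RPKM in KO. *Igf2*, the paternally expressed partner of *H19*, had 0.694 and 0.851 RPKM in WT and 0.527 and 0.721 RPKM in KO and was not called (log2 difference -0.28, SE 0.215, limma adjusted p 0.405). After centring, *Ndn* was no longer called and *Mcts2* was called lower.

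Germline genes moved in both directions. Of 48 listed germline genes with reported promoter methylation, 33 passed the filter. Of these, 13 were called higher and 6 lower, beside 12.2% and 5.27% of all genes tested, with a median of 0.32. Of the 33, 9 passed only through KO libraries, so the count and the median are no separate support. *Fkbp6*, a piRNA pathway cochaperone, had 0.0889 and 0 RPKM in WT and 4.21 and 3.24 RPKM in KO. *Asz1*, a germ cell protein of the piRNA pathway, had 0.0109 and 0 RPKM in WT and 1.15 and 0.793 RPKM in KO. *Hormad1*, a meiotic axis protein, had 2.92 and 2.49 RPKM in WT and 18.2 and 12.4 RPKM in KO (log2 difference 2.44), and *Hormad2* (2.92), *Smc1b* (1.83) and *Stk31* (1.39) also rose. *Dazl*, an RNA-binding protein of germ cells, was already transcribed in WT, with 3.39 and 3.40 RPKM, and had 6.64 and 5.17 RPKM in KO (log2 difference 0.77). *Sycp3*, of the lateral element of the synaptonemal complex, went the other way, with 8.66 and 6.80 RPKM in WT and 2.27 and 1.85 RPKM in KO. *Tex11* (-0.97), *Gm1564* (-0.81), *Tdrd5* (-0.76), *Dmc1* (-0.64) and *Pnldc1* (-0.54) were also called lower. *Ddx4*, *Mael* and *Tex14*, between 2.71 and 7.86 RPKM in WT, were not called. The count of genes called lower was 3 without WT replicate 1, 4 without WT replicate 2 and 8 after centring.

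Gene families with testis or X-linked expression moved mostly in 1 direction. Of 27 listed, 13 passed the filter, of which 8 passed only through KO libraries. The 12 called higher, beside 12.2% of all genes tested, are therefore no separate support. *Fmr1nb* had 1.90 and 1.91 RPKM in WT and 19.3 and 15.8 RPKM in KO, and *Xlr3a* 0 and 0.0578 RPKM against 5.91 and 4.16 RPKM. *Xlr4a* had no read in WT and 3.11 and 1.94 RPKM in KO, at least 42.0-fold higher against the floor of 3 reads. *Cox6b2*, a testis paralog of a cytochrome oxidase subunit, was the 1 member called lower, with 18.92 and 17.25 RPKM in WT and 12.3 and 11.7 RPKM in KO, and it was not called when any one of WT replicate 1, WT replicate 2 or KO replicate 2 was left out. Genes of the *Xlr*, *Rhox*, *Zscan4* and *Dub* families have near-identical copies whose reads the counting could split, so single members are uncertain. Among the 14 members that did not pass, 6 had no read in any library and the highest value was 0.568 RPKM.

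In the Rhox cluster, 14 of 15 listed genes had values and 5 passed the filter. Of these 5, 4 were called higher, beside 12.2% of all genes tested. But 4 of the 5 passed only through KO libraries, so they had to differ to be tested. *Rhox1* had 0.0348 and 0.118 RPKM in WT and 2.88 and 2.21 RPKM in KO, and *Rhox13* 0.176 and 0 RPKM against 1.71 and 0.717 RPKM. *Rhox10* had 0.508 RPKM in KO replicate 1 and 0.0351 RPKM in KO replicate 2, and was not called (log2 difference 1.31, SE 0.595). *Rhox3a*, *Rhox8* and *Rhox11* had no read in any of the 4 libraries. The rises were of 4 members of the cluster.

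Genes of the 2-cell embryo, a totipotent state that a small share of ESCs enters at any time, were low but present in KO. Of 28 listed, 20 were in the table and 8 passed the filter, each only through KO libraries. *Zscan4d*, a telomere-associated zinc finger gene, had 0 and 0.0261 RPKM in WT and 1.76 and 0.994 RPKM in KO. *Dub3*, a deubiquitinase gene, had 0 and 0.032 RPKM in WT and 2.12 and 1.26 RPKM in KO. The summed level over the listed genes was between 0.407 and 0.575 RPKM in WT and between 9.32 and 14.4 RPKM in KO. Among the 12 that did not pass the filter, 10 had both KO libraries above both WT libraries, none above 0.726 RPKM. Over all genes tested, 31.9% were separated in this way. The share over all genes that did not pass was not taken, so the 10 are no support for a rise. In bulk RNA, a larger share of cells in this state and more RNA in each such cell cannot be told apart.

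Promoter sequences are shown for 4 genes that carry the contrasts above, chosen after their values were seen. *Fkbp6* and *Asz1* rose from near 0 with 23 and 17 CG dinucleotides at the gene start, *Pnma5* rose with 1, and *Sycp3* fell. Each run holds 250 bases before and 50 bases from the annotated 5′ end of the gene on its own strand, in NCBIM37, with every CG in capitals. The windows are at chr5:135825846-135826145 (minus strand) for *Fkbp6*, chr6:18059012-18059311 (minus strand) for *Asz1*, chr10:87922064-87922363 (plus strand) for *Sycp3* and chrX:70282393-70282692 (minus strand) for *Pnma5*. The annotated end need not be the start used in these cells.
Fkbp6: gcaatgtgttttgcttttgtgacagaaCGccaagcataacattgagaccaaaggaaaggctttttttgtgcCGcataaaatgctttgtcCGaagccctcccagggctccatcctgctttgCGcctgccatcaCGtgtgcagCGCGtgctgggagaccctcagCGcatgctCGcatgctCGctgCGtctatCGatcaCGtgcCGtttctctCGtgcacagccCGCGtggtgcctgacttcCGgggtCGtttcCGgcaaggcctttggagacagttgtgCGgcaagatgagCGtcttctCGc
Asz1: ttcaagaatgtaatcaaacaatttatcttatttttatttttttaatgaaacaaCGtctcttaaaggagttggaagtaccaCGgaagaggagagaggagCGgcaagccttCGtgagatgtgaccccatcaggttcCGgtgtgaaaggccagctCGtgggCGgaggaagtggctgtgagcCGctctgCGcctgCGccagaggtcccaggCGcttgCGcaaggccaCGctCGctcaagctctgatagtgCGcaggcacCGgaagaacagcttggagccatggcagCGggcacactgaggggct
Sycp3: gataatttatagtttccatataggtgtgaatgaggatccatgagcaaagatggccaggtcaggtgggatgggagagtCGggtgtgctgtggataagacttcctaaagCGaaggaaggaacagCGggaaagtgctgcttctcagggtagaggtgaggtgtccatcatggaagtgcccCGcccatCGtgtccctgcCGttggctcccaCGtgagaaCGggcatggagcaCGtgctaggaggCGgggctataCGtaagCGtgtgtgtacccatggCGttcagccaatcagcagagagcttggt
Pnma5: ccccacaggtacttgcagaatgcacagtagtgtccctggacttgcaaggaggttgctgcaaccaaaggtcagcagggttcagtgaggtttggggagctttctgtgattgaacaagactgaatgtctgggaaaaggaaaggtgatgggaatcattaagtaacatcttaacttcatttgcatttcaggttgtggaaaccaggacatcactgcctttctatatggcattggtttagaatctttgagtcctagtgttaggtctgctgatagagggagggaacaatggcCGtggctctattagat

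These windows hold 23 CG dinucleotides for *Fkbp6*, 17 for *Asz1*, 13 for *Sycp3* and 1 for *Pnma5*. The median over all windows was 19, over the genes called higher 17, and over the 118 genes higher by more than 2 log2 units 7.5. Windows with fewer than 8 CG made up 16.8% of all windows and 50% of those 118. Their share was 39.8% for genes called higher by more than 1 log2 unit and 31.2% for genes called lower by more than 1. The 13 germline genes called higher had a median of 17, close to that of all genes, and the 8 tested genes of the 2-cell embryo had a median of 3. The hexamer CACGTG, which reads the same on both strands and contains a CG, was in 4 of those 13 germline windows, in 13 of the 33 germline windows tested and in 10.3% of all windows. *Fkbp6* and *Sycp3*, which moved in opposite directions, both hold it. These counts describe the windows, and their relation to the changes was not tested. *Rian* and *Rhox1* had no CG in their windows.

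Other genes of the methylation machinery changed little next to *Dnmt1*. The list of 17 genes included *Dnmt1* itself, and each passed the filter. In it 3 were called higher and 3 lower, *Dnmt1* among the latter, where 12.2% and 5.27% of all genes were. *Dnmt3l* had 47.2 and 38.8 RPKM in WT and 63.8 and 61.9 RPKM in KO (log2 difference 0.55), *Uhrf1* 25.9 and 26.6 RPKM against 33.0 and 34.3 RPKM (0.36), and *Dnmt3b* 12.4 and 14.9 RPKM against 16.0 and 26.4 RPKM (0.59, limma adjusted p 0.0498). *Uhrf1* and *Dnmt3b* were not called after centring. *Tet2* had 21.9 and 23.0 RPKM in WT and 12.96 and 13.73 RPKM in KO (log2 difference -0.75, limma adjusted p 0.000243), and *Dnmt3a* was lower by -0.45. *Tet1*, with 34.5 and 41.7 RPKM in WT and 27.1 and 43.3 RPKM in KO, was not called. No gene on this list was called higher without WT replicate 2, and 1 was without WT replicate 1.

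The ESC identity of both groups was checked by markers. *Pou5f1*, which encodes OCT4, had 169 and 160 RPKM in WT and 168 and 143 RPKM in KO (log2 difference -0.09, SE 0.125, limma adjusted p 0.666). *Nanog* had 161 and 157 RPKM in WT and 225 and 166 RPKM in KO. Among 20 naive pluripotency genes, 1 was called higher and 2 lower, and among 10 core genes 1 higher and 2 lower, beside 12.2% higher and 5.27% lower over all genes tested. *Fbxo15* rose by 0.97 and *Gdf3* by 0.66, while *Tcl1* (-0.52), *Sox2* (-0.34) and *Lin28a* (-0.38) fell. *Sox2* had 84.2 and 84.6 RPKM in WT and 69.4 and 64.4 RPKM in KO. *Klf4*, *Tbx3* and *Sall4* differed more between the KO libraries than between the groups, *Sall4* with 6.75 and 18.4 RPKM in KO against 7.83 and 9.12 RPKM in WT. Without KO replicate 2, 5 naive genes were called higher and 6 lower, and without KO replicate 1, 2 and 4. No core gene was called lower without WT replicate 1, and 1 was without WT replicate 2.

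Lineage genes rose from low levels in part. Of 18 listed trophoblast genes, 12 passed the filter and 10 were called higher, beside 12.2% of all genes tested, with a median of 1.58. *Plac1* and *Hand1*, near 0 in WT, were among 4 that passed only through KO libraries, so the count is no separate support for them. Simple keratins of early epithelia were already transcribed in WT. *Krt8* had 14.4 RPKM in each WT library and 63.8 and 52.3 RPKM in KO (log2 difference 2.00, limma adjusted p 1.04e-06), *Krt18* 18.2 and 19.6 RPKM against 73.4 and 53.8 RPKM (1.73), and *Krt19* 2.35 and 2.19 RPKM against 14.2 and 8.38 RPKM (2.22). *Plac1* (2.70), *Hand1* (2.73) and *Tcfap2c* (1.06) also rose. The defining trophoblast factors stayed near 0: *Tpbpa* had no read, *Elf5* was at 0.0487 RPKM or below, *Gata3* at 0.216 RPKM or below and *Cdx2* at 0.248 RPKM or below in each library. *Eomes* and *Tead4* were not called.

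Some primitive endoderm genes were called. Of 18 listed, 10 passed the filter and 3 were called higher, beside 12.2% of all genes tested. They were the basement membrane collagens *Col4a1* (1.43) and *Col4a2* (1.54) and the matrix glycoprotein *Sparc* (0.51). *Col4a1* had 7.23 and 7.59 RPKM in WT and 16.5 and 24.7 RPKM in KO. The laminin chains *Lama1*, *Lamb1* and *Lamc1* were higher in KO replicate 2 than in KO replicate 1 and were not called, *Lama1* with 7.28 and 20.6 RPKM in KO. *Gata4*, *Gata6* and *Pdgfra*, between 1.07 and 1.94 RPKM in each library, were not called. *Lefty2* (1.09) and *Nodal* (0.52), a Nodal target and its ligand, were called higher among the formative and lineage genes, where *T*, *Mixl1* and *Pax6* stayed at 0.234 RPKM or below. Without KO replicate 1, 6 primitive endoderm genes were called higher.

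Markers of fibroblasts, the cells used as feeders, were checked because the methods do not say which cultures had them. The defining collagens and surface markers were near 0 in every library, with *Col1a1* at 0.101 RPKM or below, *Col1a2* at 0.00815 RPKM or below, and *Lum* and *Fap* without a read in any of the 4. The 22 listed fibroblast genes summed to between 25.5 and 32.4 RPKM in WT and between 24.5 and 35.9 RPKM in KO, mostly from *Fn1* and *Vim*, which ESCs also transcribe. Of 6 that passed the filter, *Acta2* (2.32), *Vim* (0.74), *Twist1* (0.72) and *Tagln* (0.49) were called higher and *Thy1* lower. *Acta2* passed only through KO libraries, so it had to be high in KO to be tested. Over all genes tested, 12.2% were called higher and 5.27% lower. After centring, *Tagln* and *Twist1* were not called. WT levels of some of these genes were low at day 11. *Acta2* had a WT mean of 6.21 RPKM at day 0 and 4.98 at day 9 against 0.0883 at day 11, and its KO mean at day 11, 0.877 RPKM, was below those earlier WT levels. *Vim* had 18.6 and 21.8 RPKM in WT at days 0 and 9 against 5.52 at day 11, and *Tagln* 6.7 and 5.67 RPKM against 1.68. The count of rises was also 2 without WT replicate 1, WT replicate 2 or KO replicate 1.

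**Figure D4:**
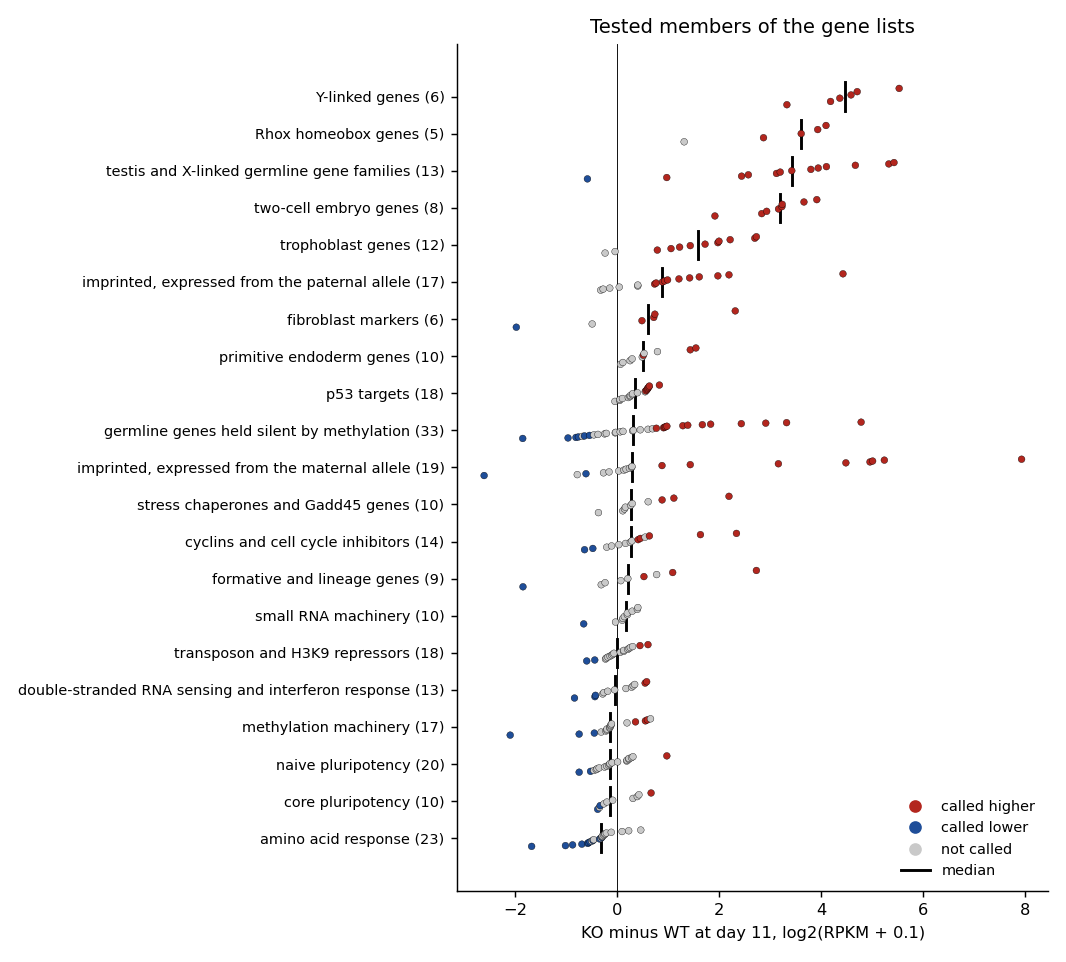
Log2 difference between KO and WT at day 11 for the members of each list that passed the filter on low values (number in brackets). Red points were called higher, blue lower and grey were not called, and the black bar is the median of the list. The Y-linked, Rhox, testis and 2-cell embryo lists have medians above 3, and the amino acid list the lowest, at -0.32. Several of the lists with high medians passed the filter mainly through KO libraries.

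Some targets of p53, the transcription factor of the DNA damage response, were called higher. Of 20 listed, 18 passed the filter, with a median of 0.35. Of these, 7 were called higher, none lower and 11 not at all, beside 12.2% higher and 5.27% lower over all genes. *Cdkn1a*, the p21 inhibitor of cyclin-dependent kinases, had 10.03 and 10.08 RPKM in WT and 16.2 and 15.1 RPKM in KO (log2 difference 0.63, SE 0.0847, limma adjusted p 0.000664). *Perp* (0.83), *Mdm2* (0.62), *Plk2* (0.60), *Tnfrsf10b* (0.59), *Btg2* (0.58) and *Phlda3* (0.56) were the others. *Bax*, *Bbc3* and *Pmaip1*, which promote apoptosis, were not called, *Pmaip1* with 19.67 and 19.17 RPKM in WT and 21.4 and 18.9 RPKM in KO. The count was 4 without WT replicate 1, 10 without KO replicate 2, 0 where only the day 11 libraries were fitted and 1 with all 34 libraries.

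Cell cycle inhibitors of the Ink4 family rose more. *Cdkn2a* had 0.973 and 1.11 RPKM in WT and 7.45 and 4.32 RPKM in KO (log2 difference 2.34, limma adjusted p 0.000434), and its neighbour *Cdkn2b* 0.707 and 0.634 RPKM against 2.38 and 2.20 RPKM (1.63). *Cdkn2b* passed the filter only through KO libraries. It had to be high in KO to be tested, so its call is no separate support. *Cdkn1b*, which encodes p27, was lower by -0.64, *Ccna2* by -0.48, and *Ccne1* was higher by 0.45. In all, 5 of the 14 tested cyclins and inhibitors were called higher and 2 lower, and none was called lower without WT replicate 1. Over all genes tested, 12.2% were called higher and 5.27% lower. Of 10 chaperones and Gadd45 genes tested, *Gadd45g* (2.19), *Gadd45b* (1.11) and *Hspa1b* (0.88) were called higher. The WT mean of *Gadd45g* was 0.139 RPKM at day 11 and 0.817 at day 9. *Hspb1*, at 103 and 100 RPKM in WT and 114 and 111 RPKM in KO, was not called.

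Among genes of the amino acid response controlled by ATF4, the calls were falls. Of 25 listed, 23 passed the filter, with a median of -0.32. Of these, 10 were called lower, none higher and 13 not at all, beside 5.27% lower and 12.2% higher over all genes. After centring 14 were called lower, without WT replicate 1 the count was 5, and without WT replicate 2 it was 6. *Asns*, asparagine synthetase, had 107 and 120 RPKM in WT and 63.4 and 49.3 RPKM in KO (log2 difference -1.02, SE 0.119, limma adjusted p 0.000275). *Cth*, which makes cysteine, had 38.4 and 41.8 RPKM in WT and 24.1 and 19.7 RPKM in KO. The WT level of *Asns* was high at day 11, with a mean of 113 RPKM against 38.8 at day 17 and 24.6 at day 25. Its KO mean at day 11, 56.4 RPKM, was above those later WT means. *Cth* went otherwise, with WT means of 40.1, 42.4 and 21 RPKM at days 11, 17 and 25. The part of the WT level in the falls of this list was not tested. The serine synthesis genes *Psat1* (-0.58) and *Phgdh* (-0.56), the proline enzyme *Pycr1* (-0.69) and the tRNA synthetases *Nars* (-0.53) and *Sars* (-0.48) were also called lower. Of the transporter subunits, *Slc3a2* was called lower by -0.30, and *Slc7a5*, at 6.12 and 10.4 RPKM in WT and 5.45 and 16.0 RPKM in KO, was not called. *Atf4* RNA, at 118 and 129 RPKM in WT and 117 and 96.7 RPKM in KO, was not called. *Chac1*, which degrades glutathione, had the lowest difference of the list.

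Repressors of transposons and the small RNA pathway showed few changes. Of 18 repressors tested, *Trim28* (0.60) and *Daxx* (0.45) were called higher and *Zfp57* (-0.60) and *Eed* (-0.44) lower, a share of rises near the 12.2% of all genes tested (5.27% lower). *Zfp57*, a zinc finger protein that guards imprints, had 57.8 and 61.0 RPKM in WT and 35.7 and 43.0 RPKM in KO. *Trim28* rested mainly on KO replicate 2, with 48.9 and 81.4 RPKM in KO against 40.1 and 42.9 RPKM in WT, and it was not called after centring. *Setdb1* was not called (log2 difference -0.11, SE 0.116). Of 10 small RNA genes tested, *Prkra*, a partner of Dicer, was called lower by -0.66. *Dicer1* had 5.59 and 6.27 RPKM in WT and 5.99 and 8.86 RPKM in KO, and *Eif2c2*, which encodes AGO2, 4.39 and 6.92 RPKM against 4.31 and 12.4 RPKM. For *Eif2c2* the KO libraries lay on both sides of the WT libraries, and neither gene was called. Without KO replicate 1, 5 small RNA genes were called higher. *Prkra* was not called without WT replicate 1, WT replicate 2 or KO replicate 2, and *Trim28* and *Daxx* were not called when either WT library was left out.

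Interferon-stimulated genes gave no common direction. Of 27 listed, 13 passed the filter, 2 were called higher (*Mavs*, 0.58, and *Ifitm3*, 0.55) and 3 lower (*B2m*, -0.84, *Ddx58*, -0.44, and *Bst2*, -0.43), beside 12.2% and 5.27% of all genes tested. *Ddx58*, the sensor RIG-I, had 3.83 and 4.27 RPKM in WT and 2.94 and 2.98 RPKM in KO. *Isg15*, *Ifit1*, *Ifit3* and *Rsad2*, which mark an active interferon response, were at 0.078 RPKM or below in each library. None of the 3 falls was called without WT replicate 1 or without WT replicate 2.

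The change between KO and WT at day 11 was set beside that at day 17, from other libraries of the same kind, by testing the difference of the 2 effects. It was called for 366 genes, 3.19% of those tested, with 291 higher and 75 lower at day 17. The count moved widely when a single library of day 11, WT or KO, was left out. Such a fit also changes the estimate of the spread, and the reason for the move was not tested. By the naming rule, which asks for a call at this test and a mean log2 level of at least 0 over the 8 libraries of both days, the largest differences above were of *Gm14136*, *Trh*, *Id4*, *S100a13* and *Fabp3*, and those below of *Tsx*, *Metrnl*, *Hist1h2aa*, *Psmb10* and *Lgals9*. *Trh* had 63.6 and 69.5 RPKM in WT at day 11 and a mean of 32.3 RPKM in WT at day 17, with 30.1 RPKM in KO at day 17. *Fabp3* moved likewise in WT, from 359 and 345 RPKM at day 11 to a mean of 79.2 RPKM at day 17. For these genes the WT level, and not only the KO level, differed between the days.

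Of the 18 p53 targets tested, 9 had a larger effect at day 17 than at day 11. Over all genes tested the effects differed for 3.19%, in either direction. *Cdkn1a*, *Perp*, *Plk2*, *Btg2* and *Phlda3* were already called at day 11, and *Ccng1*, *Trp53inp1*, *Eda2r* and *Pmaip1* were not. From day 11 to day 17 the WT means of these 9 genes fell, except for *Perp* and *Plk2*. That of *Cdkn1a* went from 10.1 to 5.25 RPKM, and its KO mean from 15.6 to 18.8 RPKM. *Perp* went from 13.1 to 14.1 RPKM in WT and from 23.5 to 47.5 RPKM in KO. *Rian*, *H19*, *Grb10*, *Rpl39l* and the tested Rhox genes did not pass this test, with differences of *Rian* 0.36, *H19* 0.29 and *Grb10* -0.01. KO replicate 1 had a Pearson r of 0.973 with each KO library of day 17, and KO replicate 2 between 0.957 and 0.962. With the KO libraries of day 9, KO replicate 2 had the higher r, between 0.947 and 0.950 against 0.932 and 0.934. These are correlations across 11458 genes, and day 9 came from libraries with a lower share of reads in exons.

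**Figure D5:**
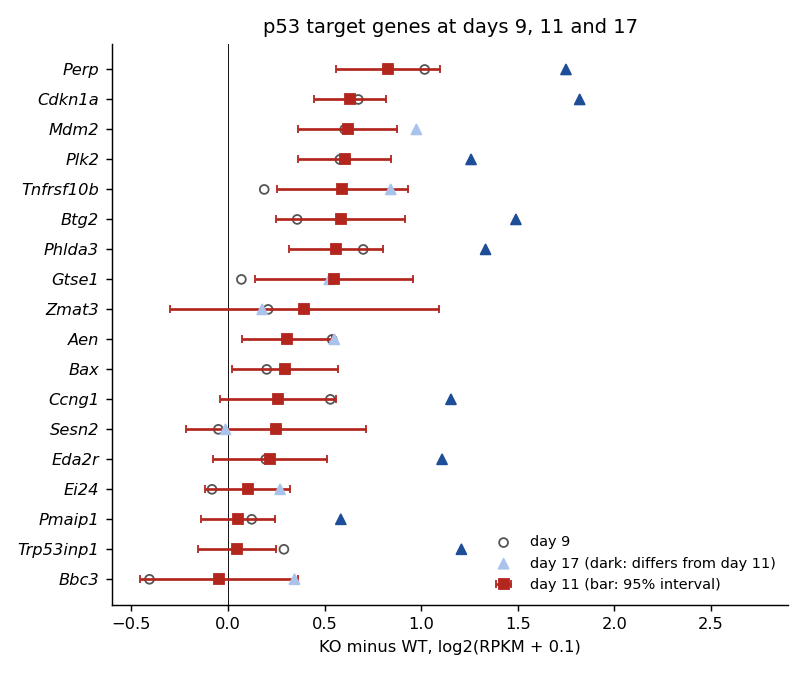
Log2 difference between KO and WT for the 18 p53 targets that passed the filter. Red squares are day 11 with the 95% interval of the limma fit, open circles day 9 and triangles day 17, dark where the effect differed from day 11 (9 genes). At day 11 the values run from -0.04 (*Bbc3*) to 0.83 (*Perp*).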

How the data were processed

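RNA-seq libraries were made from total RNA after removal of ribosomal RNA, with a stranded paired-end protocol. According to the study's methods and the submitters' processing notes, the authors trimmed reads with Trim Galore 0.3.5, aligned them to NCBIM37 with TopHat2 2.0.11, kept alignments of high mapping quality and used SeqMonk for the gene values. The deposited values are linear RPKM per gene, although the methods speak of log2 RPM. The strand setting of the counting is not given in the sources used here, so antisense partners cannot be told apart. Near-identical gene copies are uncertain, since the counting could split their reads.

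The deposited table had 26127 rows, of which 125 share a symbol. Values below 20 reads were whole multiples of 1 read, within 0.1, for between 99.6% and 99.7% of values in the day 11 libraries, which gave the reads behind each value. Floors of 3 reads cover counting error only.

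Values were analysed as log2(RPKM + 0.1), a scale that understates changes of low genes. Genes above 1 RPKM in at least 2 of 12 libraries (days 11, 17 and 25) were tested with limma 3.58.1 in R 4.3.3 (group means, trended empirical Bayes, Benjamini-Hochberg adjusted p below 0.05). These 12 libraries share an exon share, whereas a fit to all 34 WT and KO libraries includes the third day 1 pair, which differs from its group in this respect and widens the spread. In data simulated for the day 11 comparison, 200 genes were changed in all, by 1 or by 2 log2 units. Of those changed by 1, 76% were recovered, and of those changed by 2, 95%, with 5% of calls false. The simulated noise had 1 spread per gene over the 12 libraries. It held neither the wider spread of the day 11 KO pair nor the trend with exon length. Tables and figures used Python 3.11.15, numpy 2.4.6, pandas 2.3.3 and matplotlib 3.10.9.

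Genes were named by rule: *Dnmt1*, then the 15 largest rises and 12 largest falls that were called, had a mean log2 level of at least 0 over the 4 libraries and had both KO libraries on the same side of both WT libraries, then the 5 largest called differences each way between days 17 and 11 with a mean log2 level of at least 0 over those 8 libraries, and members of the lists. The groups, lists and their members were chosen with earlier results of these data known. Gene lists are described by counts and medians, with no set test. Alternatives were the pseudocount, the filter, median centring, the libraries fitted, a replicate block, voom on recovered reads and leaving out each library. Removal of an exon-length trend and a block with crossed day 17 numbers were chosen after seeing the data. Promoter windows were read from the NCBIM37 genome and gene models, and 99.9% of rows matched an annotated gene.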

Additional observations from a re-analysis of the deposited data

Results flagged for a closer look

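The effect of the deletion was compared between day 17 and day 11 by a limma test of the difference, and 366 genes passed. Values in brackets are the effect at day 17 minus that at day 11, in log2 units. Such a value can come from the WT level, the KO level or both, and its sign does not give the sign of either effect. The count of 366 moved widely when a single library of day 11, WT or KO, was left out, and the reason was not tested. Groups of 2 libraries allow no check for a library that stands apart within its group.

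The differences named by rule were *Gm14136* (2.01), *Trh* (1.92), *Id4* (1.86), *S100a13* (1.78) and *Fabp3* (1.78) above, and *Tsx* (-1.98), *Metrnl* (-1.97), *Hist1h2aa* (-1.80), *Psmb10* (-1.65) and *Lgals9* (-1.45) below. Among p53 targets the effect was larger at day 17 for *Cdkn1a* (1.19), *Trp53inp1* (1.16), *Perp* (0.92), *Btg2* (0.91), *Ccng1* (0.90), *Eda2r* (0.89), *Phlda3* (0.77), *Plk2* (0.65) and *Pmaip1* (0.53). Smooth muscle and epithelial genes *Acta2* (2.52), *Tagln* (1.61) and *Krt7* (1.35) also had larger effects at day 17, as did the small heat shock gene *Hspb1* (0.63). Among pluripotency genes the difference was above 0 for *Tcl1* (1.17), *Nanog* (0.97), *Esrrb* (0.79) and *Sox2* (0.60) and below 0 for *Gbx2* (-1.03). The formative factor *Pou3f1* (-1.06) lay below 0 and the ligand gene *Nodal* (0.68) above.

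Among germline genes the difference was above 0 for *Slc25a31* (1.91), *Dazl* (1.37), *Stag3* (0.85) and *Tex14* (0.83), and for *Cox6b2* (1.66) from the testis list. For *Stag3*, *Tex14* and *Cox6b2* the KO mean lay below WT at day 11 and above it at day 17. *Cox6b2* had means of 18.1 RPKM in WT and 12 in KO at day 11, and 3.57 and 7.75 at day 17. *Stag3* had 4.75 and 3.64 RPKM, then 1.66 and 2.35 RPKM. Imprinted genes went both ways, with *Sgce* (1.32), *Zrsr1* (0.79), *Cd81* (0.78) and *Impact* (0.58) above and *Phlda2* (-1.12) and *Cdkn1c* (-1.11) below. The difference was below 0 for the de novo methyltransferase genes *Dnmt3a* (-1.44) and *Dnmt3b* (-1.40). From day 11 to day 17 their KO means went from 1.92 to 2.15 RPKM and from 21.2 to 22.2 RPKM. Their WT means went from 2.64 to 8.21 RPKM and from 13.7 to 38.9 RPKM. The amino acid response genes *Chac1* (-1.21) and *Mthfd2* (-0.67) and the cyclin gene *Ccne1* (-0.73) also lay below 0.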

How the results depend on the processing

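The fall of *Dnmt1* was called under each alternative run. With only the day 11 libraries fitted, 300 genes were called higher and 62 lower (362 in all). With 34 libraries the counts were 507, 146 and 653, and without the third day 1 pair 2686, 1467 and 4153. Median centring gave 1053 genes lower and removal of the exon-length trend 1206. Leaving out 1 library gave between 568 and 2339 genes higher, between 159 and 1495 lower and between 727 and 3834 in all, and between 10 and 1831 genes whose effect differed between days 17 and 11. That last count was 209 after centring, 83 with 34 libraries and 1976 without the third day 1 pair. Of 137 listed genes called, 58 were called with the day 11 libraries alone, where 10593 genes were tested, and 80 with 34 libraries. These fits use fewer or other samples to estimate the spread; for centring and the length trend the cause was not tested. The balance of directions turned with scaling, from 69.9% of calls higher as deposited to 47.2% after centring and 49.4% without the length trend, but no gene called in the report's fit was called in the opposite direction under any alternative.

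Of 26 genes named at day 11, *Efcab10*, *G0s2* and *Chac1* lost their call under at least 1 alternative. Of 10 named for the difference between days, 8 did without WT replicate 1 and 6 without WT replicate 2. Transcripts near the floor, such as *Rhox10*, are limited by depth.

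WT and KO libraries share replicate numbers, but nothing says that a number marks a shared culture. Deviations of same-numbered libraries from their group means had a correlation of 0.284 at day 11, -0.172 at day 17 and 0.0489 at day 25, so the numbers were not taken to pair the samples. With the replicate block, 1354 genes were called higher and 548 lower at day 11, and 138 differed between the days. With the day 17 numbers crossed, 348 differed.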
